A study of Mus musculus with 28 samples.

Results

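Leukocytes sorted from MC38 tumours at day 6 were compared between Nrp1L/LFoxp3Cre-YFP hosts (2 arrays) and Foxp3Cre-YFP hosts (2 arrays). MC38 is a mouse colon carcinoma line, and the sort took intratumoral cells that carry CD45, the surface protein of blood-derived cells. The 4 arrays were chosen by their sample titles out of 28 arrays in 12 groups, which also cover MC38 tumours at days 12 and 18 and B16.F10 melanoma. Both kinds of host carry Cre recombinase and yellow fluorescent protein under Foxp3, so only the floxed Nrp1 alleles set them apart, and the hosts are called Nrp1-deleted and control here. Cre under Foxp3 acts in regulatory T cells (Treg), so by design the other leukocytes, the stroma and the carcinoma cells of a deleted host keep Nrp1. Whether any deletion occurred outside Treg was not tested. Each array gives the mean over a mixture of leukocytes, in which fewer cells of a type and less RNA per cell cannot be told apart. No label says whether replicates came from separate mice, so p-values measure only a spread between arrays, which may be technical. That spread was estimated from all 28 arrays in 12 groups, not from the 4 day 6 arrays alone. The sources used here do not give the age of the hosts.

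Neuropilin-1, the product of Nrp1, is a co-receptor for semaphorins and for vascular endothelial growth factor. In mice it sits on many Treg, where the ligand Sema4a on neighbouring cells helps to keep Treg suppressive, and it is also made by macrophages, plasmacytoid dendritic cells and endothelium. Treg in tumours hold back T cells and natural killer (NK) cells, the lymphocytes that kill with granzymes and perforin and release interferon gamma.

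Nrp1 was at 8.93 and 7.97 (log2) on the Nrp1-deleted arrays, against 9.06 and 9.16 on the control arrays. Both deleted arrays lay below both controls, but only deleted replicate 2 stood well apart. The difference was -0.66 ± 0.23 (log2, SE, n = 2 each) and did not pass the test (limma, adjusted p = 0.121). Without deleted replicate 1 it was -1.14 (adjusted p = 0.00764), and without deleted replicate 2 it was -0.18. All 3 probe sets of Nrp1 were lower in the deleted group, and an exact 2-sided permutation of 2 against 2 arrays cannot give a p below 0.3333. Where these probe sets lie relative to the loxP sites was not determined. Macrophage and monocyte markers were also lower in deleted replicate 2 than in deleted replicate 1, for all but 1 of 14 macrophage genes and for all 8 monocyte genes. The mean level of the macrophage list was 10.982 and 10.559 in the deleted group, against 10.981 and 10.998 in controls, and that of the monocyte list was 11.52 and 11.12 in the deleted group, against 10.97 and 10.98 in controls. The part of the cell mixture in the Nrp1 difference was not tested. Foxp3, the transcription factor that defines Treg, was at 3.21 and 2.87 in the deleted group and at 3.08 and 2.88 in controls, below the median of all values on these arrays (3.65). Ptprc, the gene of CD45, was at 12.34 and 12.27 on deleted arrays and at 11.96 and 11.95 on control arrays (difference 0.34 ± 0.09, adjusted p = 0.0345; chosen after its values were seen). The other pan-leukocyte genes looked at, Coro1a, Laptm5 and Ptpn6, overlapped between the groups. The 2 deleted arrays correlated at 0.988 over all 45141 probe sets and the 2 controls at 0.993, against 0.983 to 0.986 between the groups. Array means ran from 4.82 to 4.84. A spread of over 1 log2 unit within the pair was seen for 278 genes in the deleted group and 99 in the control group.

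In the Nrp1-deleted group 168 genes rose (0.983% of 17097 tested) and 340 fell (1.99%), which is 2.97% in all at an adjusted p under 0.05. The 15 largest rises included the chemokine genes Ccl24 and Ccl8 and the NK cell receptor genes Klra8, Klrb1c and Klrb1a, and the 15 largest falls included chains of type V and type VI collagen. A change of 2-fold or more was reached by 56 of the genes that rose and 128 of those that fell. The median difference over all genes was -0.05 (log2), with 7062 of the 17097 differences above 0 and 10035 below. Groups did not overlap for any of the 508 called genes, as for 42.1% of all genes tested (16.2% higher and 25.9% lower in the deleted group). That lack of overlap fixes in advance that all 508 keep their sign when any 1 of the 4 arrays is left out. The number of genes called, however, depended strongly on which array was left out. Scaling the arrays by cyclic loess gave 505 calls, 456 of them shared with the deposited values, and 42.2% of the 505 were rises, against 33.1% in the deposited values.

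**Figure D1:**
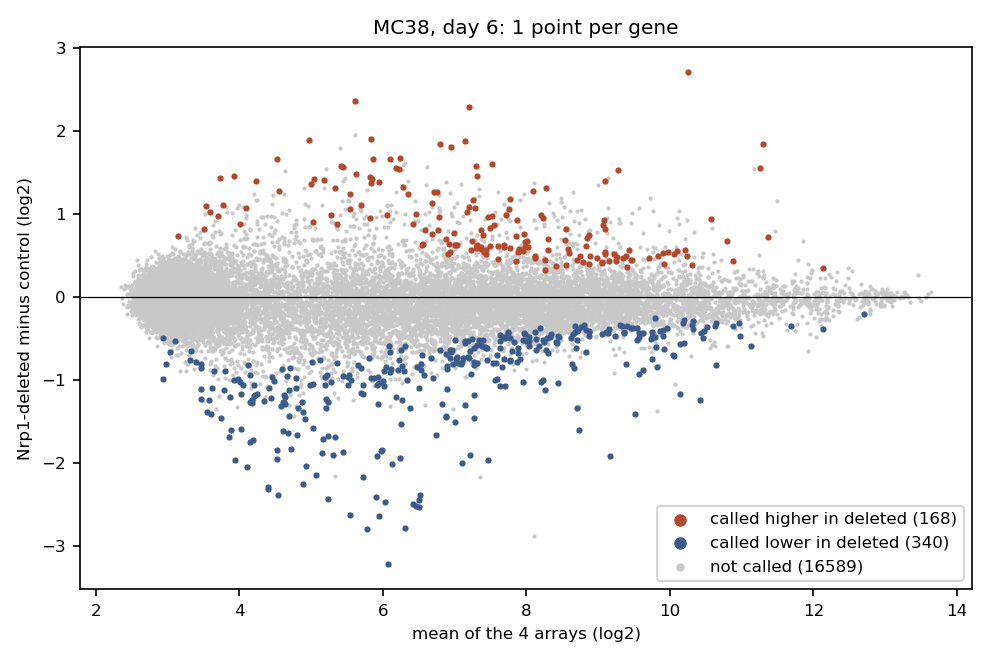
Difference between Nrp1-deleted and control arrays (y axis, log2) against the mean of the 4 day 6 arrays (x axis, log2), 1 point per gene. The 168 genes called higher are red, the 340 called lower are blue and the others grey; most of the falls of over 2 log2 units lie at middle levels, and Ccl24 is the highest point.

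Several of the largest falls were of genes of the extracellular matrix. Col5a1, a chain of the type V collagen that seeds fibrils, was at 4.28 and 4.65 on deleted arrays, against 8.03 and 7.34 on controls (difference -3.22 ± 0.32, adjusted p = 1.21e-05). Its partner chain Col5a2 was at 3.59 and 4.46 in the deleted group and at 6.83 and 6.07 in controls (-2.43 ± 0.36, adjusted p = 9.15e-04). The nearest control and deleted arrays were 2.69 log2 units apart for Col5a1 and 1.61 for Col5a2. A second, dim probe set of Col5a2 gave a difference of 0.13 and does not bear this out. Further dim probe sets of Col5a1 gave -0.02 and -0.74 and were not called (limma, adjusted p = 0.987 and 0.191).

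The 3 chains of type VI collagen, a beaded filament of the pericellular matrix, fell together. Col6a1 was at 4.28 and 4.18 on deleted arrays, against 7.30 and 6.40 on control arrays (-2.63 ± 0.32, adjusted p = 1.11e-04). Col6a2 was at 4.81 and 4.79 in the deleted group and at 7.64 and 6.91 in controls (-2.47 ± 0.30, adjusted p = 1.11e-04). Col6a3 was at 5.53 and 4.81 in the deleted group, against 8.34 and 6.98 in controls (-2.49 ± 0.40, adjusted p = 0.00159). In each chain control replicate 1 was the highest array. Serpinf1, the secreted inhibitor of vessel growth PEDF, was at 5.03 and 5.61 in the deleted group and at 8.10 and 7.32 in controls (-2.39 ± 0.29, adjusted p = 1.11e-04). Htra1, a secreted serine protease, was at 5.47 and 5.0 in the deleted group, against 8.35 and 7.18 in controls (-2.53 ± 0.38, adjusted p = 9.15e-04).

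Of 19 measured genes of a collagen and fibroblast list, 11 fell, 0 rose and 8 did not pass the test, while 1.99% of all genes fell. The median difference was -1.88, against -0.05 over all genes, and 14 of the 19 were lower without overlap, against 25.9% of all genes. Besides Col5a1, Col5a2, Col6a1, Col6a2 and Serpinf1, the genes that fell, named after their values were seen, were Dcn, Thbs2, Postn, Pcolce, Sparc and Col3a1, which encode matrix proteins or the enhancer of collagen processing, with differences from -2.03 to -1.19. The list did not move as a whole. Col1a2 and Lum, both abundant in fibroblasts, stayed below the median of all values on all 4 arrays (2.74 and 2.87 for Col1a2 in the deleted group, 2.90 and 2.87 in controls), as did Loxl2. The fibroblast receptors Pdgfra and Pdgfrb were at 3.28 to 3.45 and 3.33 to 3.41 on deleted arrays and at 3.39 to 3.77 and 3.24 to 3.74 on control arrays. The summed level of the list was 88.6 and 93.8 in the deleted group and 121 and 112 in controls, and 17 of the 19 genes were higher in control replicate 1 than in control replicate 2. Without control replicate 1 the list had 6 calls, and 9 to 11 without any other array.

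The remaining large falls were of genes known from cells that do not carry CD45, or from several lineages. Rhox5, an X-linked homeobox gene active in many tumour lines, was at 4.72 and 5.11 on deleted arrays, against 8.29 and 7.10 on controls (-2.78 ± 0.43, adjusted p = 0.00114). It was the 1 gene called among 11 of an epithelial and carcinoma list, in which 7 genes lay below the median of all values on every array, Krt8 and Krt19 among them. Epcam was at 4.69 and 4.76 in the deleted group and at 3.89 and 4.59 in controls. The summed level of that list was 44.2 and 44.6 on deleted arrays and 46.0 and 45.7 on control arrays. Cd34, a sialomucin of blood progenitors, vessels and mesenchymal cells, was at 4.59 and 4.18 in the deleted group and at 7.72 and 6.63 in controls (-2.79 ± 0.38, adjusted p = 3.65e-04). Grb10, an imprinted adaptor that damps insulin receptor signalling, was at 3.44 and 3.05 in the deleted group, against 6.13 and 4.99 in controls (-2.31 ± 0.30, adjusted p = 1.96e-04). The other, dim probe sets of Grb10 gave -0.32 and 0.11 and were not called. The part that RNA of fibroblasts or carcinoma cells had in any of these falls was not tested.

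Several genes of cell adhesion and of the transcriptional coactivators YAP and TAZ fell beside the collagens. YAP and TAZ move to the nucleus in cells that are spread on a stiff matrix and there act through the DNA-binding TEAD proteins. Cav1, the coat protein of caveolae, was at 5.27 and 5.12 on deleted arrays, against 8.18 and 7.25 on controls (-2.52 ± 0.30, adjusted p = 1.11e-04). Wwtr1, the gene of TAZ itself, was at 3.39 and 3.31 in the deleted group, below the median of all values, and at 6.14 and 5.32 in controls (-2.38 ± 0.41, adjusted p = 0.00255). Ccn1, a secreted matrix protein and a standard YAP target, was at 5.12 and 4.29 in the deleted group, against 7.44 and 6.78 in controls (-2.41 ± 0.44, adjusted p = 0.00395). The nearest arrays of the groups were 1.98, 1.92 and 1.66 log2 units apart for Cav1, Wwtr1 and Ccn1. Serpinh1, the collagen chaperone of the endoplasmic reticulum, was at 5.22 and 5.34 in the deleted group and at 8.25 and 7.20 in controls (-2.45 ± 0.47, adjusted p = 0.00613). Cald1, caldesmon, which binds actin, was at 4.82 and 4.44 in the deleted group, against 7.83 and 6.72 in controls (-2.64 ± 0.43, adjusted p = 0.00159). Dim ones among its 5 probe sets gave -0.02 and 0.21 and were not called.

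Of 11 measured genes of the YAP/TAZ and adhesion list, 5 fell, against 1.99% of all genes, with a median difference of -1.72. In that list 8 genes were lower without overlap, against 25.9% of all genes. The fifth was Ankrd1, another standard target (3.07 and 3.59 on deleted arrays, 5.68 and 4.42 on control arrays, -1.72 ± 0.43, adjusted p = 0.0294), named after its values were seen. Ccn2 and Vcl, also targets, overlapped between the groups, with differences of -0.16 and -0.06. All 11 genes were higher in control replicate 1 than in control replicate 2. Calls in the list were 1 without control replicate 1 and 3, 4 and 7 without deleted replicate 2, deleted replicate 1 and control replicate 2. The promoters of Ccn1 and Ankrd1 are shown because both genes fell and carry the core letters of a TEAD site. Each line holds 300 bases of the RefSeq reference (GRCm38.p6) from 250 before to 50 after the annotated start, on the minus strand, at chr3:145649936-145650235 for Ccn1 and chr19:36119795-36120094 for Ankrd1. Capitals mark GGAATG or its reverse complement CATTCC.
Ccn1: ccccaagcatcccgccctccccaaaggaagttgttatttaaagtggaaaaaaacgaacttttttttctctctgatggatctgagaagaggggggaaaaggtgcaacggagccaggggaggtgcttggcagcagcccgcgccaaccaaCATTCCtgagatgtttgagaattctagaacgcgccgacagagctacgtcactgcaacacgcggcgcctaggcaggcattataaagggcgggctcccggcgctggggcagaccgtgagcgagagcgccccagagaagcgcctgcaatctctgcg
Ankrd1: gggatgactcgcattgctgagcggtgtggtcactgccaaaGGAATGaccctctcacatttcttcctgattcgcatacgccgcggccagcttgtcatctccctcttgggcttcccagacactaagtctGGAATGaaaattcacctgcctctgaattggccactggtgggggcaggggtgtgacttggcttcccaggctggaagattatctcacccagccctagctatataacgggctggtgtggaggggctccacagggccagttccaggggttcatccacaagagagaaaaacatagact
Ccn1 has 1 match and Ankrd1 has 2. On either strand GGAATG stood in 6 of 11 windows (54.5%) of 9 genes of the list that had one, in 2 of 13 windows (15.4%) of the collagen list and in 14.7% of all 32851 windows. A match describes the letters only.

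**Figure D2:**
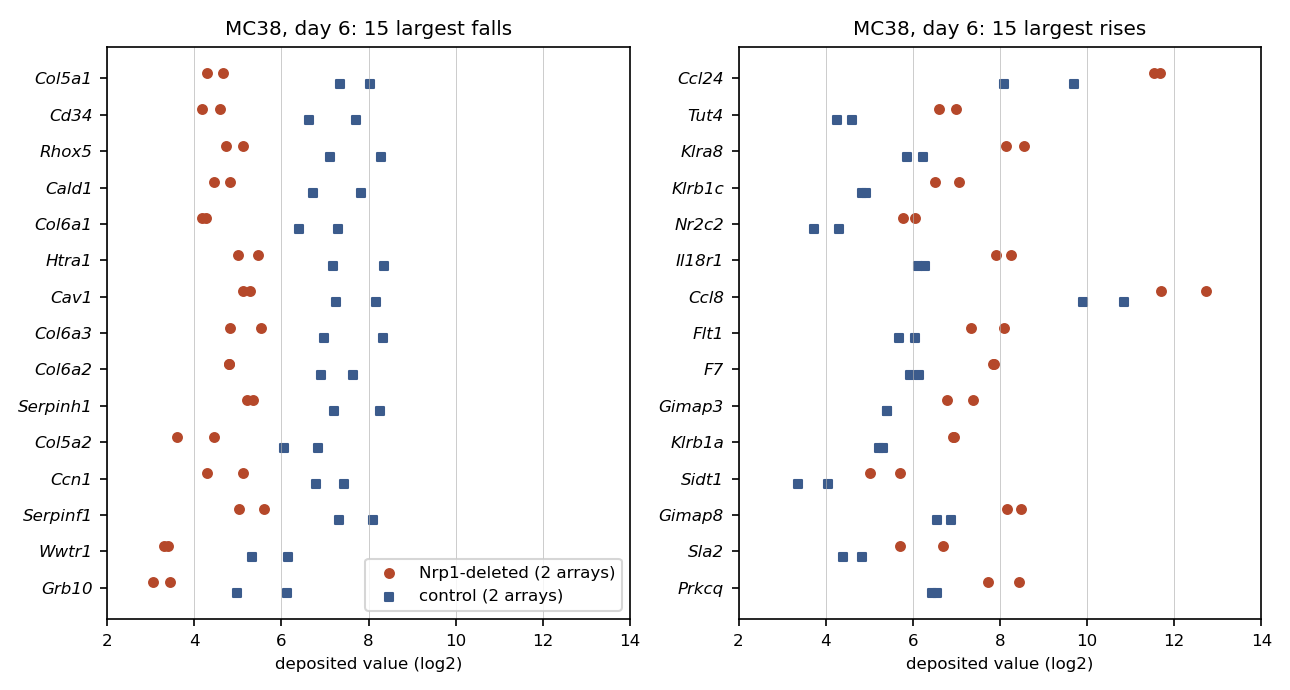
Deposited value (x axis, log2) of the 15 genes with the largest falls (left) and the 15 with the largest rises (right) on the 2 Nrp1-deleted arrays (red circles) and the 2 control arrays (blue squares). The groups do not overlap for any of the 30 genes, as for all called genes, from which the 30 were taken. Over the genes of the falls, values ran from 4.99 to 8.35 on control arrays and from 3.05 to 5.61 on deleted arrays.

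Several lectin-like receptors of NK cells rose. Klra8, the activating receptor Ly49H, was at 8.13 and 8.55 on deleted arrays, against 5.87 and 6.24 on controls (2.29 ± 0.54, adjusted p = 0.0235). Klrb1c, the receptor that carries the NK1.1 epitope, was at 6.52 and 7.06 in the deleted group and at 4.93 and 4.84 in controls (1.90 ± 0.43, adjusted p = 0.0178). Klrb1a, a related receptor, was at 6.92 and 6.95 in the deleted group, against 5.31 and 5.23 in controls (1.66 ± 0.41, adjusted p = 0.0288). The lower deleted array was 1.90, 1.59 and 1.61 log2 units above the higher control for Klra8, Klrb1c and Klrb1a. Klra7 was at 7.99 and 8.10 in the deleted group and at 6.72 and 6.45 in controls (1.46 ± 0.29, adjusted p = 0.00775). Ncr1, the activating receptor NKp46 that marks NK cells and related innate lymphocytes, was at 6.89 and 7.03 in the deleted group, against 5.59 and 5.23 in controls (1.55 ± 0.38, adjusted p = 0.0277). The Klra and Klrb1 families hold near-identical copies, so a probe set can read more than 1 of them.

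Of 9 measured NK cell genes, 4 rose (Klra8, Klrb1c, Klra7 and Ncr1), 0 fell, and the median difference was 1.14. Of all genes, 0.983% rose. All but Itga2 were higher on both deleted arrays than on both control arrays, as were 16.2% of all genes. The mean level of the list was 7.93 and 8.31 in the deleted group and 6.98 and 6.92 in controls. Calls numbered 3 without deleted replicate 1, 1 without deleted replicate 2 and 0 without either control array, with medians from 0.77 to 1.51. Il18r1, a chain of the interleukin-18 receptor that NK cells and type 1 T cells carry, rose as well. It was at 7.92 and 8.24 on deleted arrays and at 6.13 and 6.29 on control arrays (1.87 ± 0.36, adjusted p = 0.00573).

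Genes of the T cell receptor and its signalling lay higher in the deleted group throughout, but few passed the test. Prkcq, the kinase that couples the T cell receptor to transcription, was at 7.73 and 8.44 on deleted arrays, against 6.56 and 6.45 on controls (1.58 ± 0.37, adjusted p = 0.0212). It was the 1 gene called among 13 measured T cell genes. All 13 were higher without overlap, against 16.2% of all genes, and their median difference was 1.04. Bcl11b, a T lineage transcription factor, differed by 1.38 (adjusted p = 0.0737), Cd28 by 1.35 (adjusted p = 0.0885) and Cd247, the zeta chain, by 1.30 (adjusted p = 0.108). Cd8a was at 7.78 and 8.64 in the deleted group and at 7.14 and 7.39 in controls (0.94 ± 0.46, adjusted p = 0.324). All 13 genes were higher in deleted replicate 2 than in deleted replicate 1, and the mean level was 7.99 and 8.74 in the deleted group, against 7.25 and 7.44 in controls. Without deleted replicate 1 the list had 2 calls and a median of 1.48, and without any other array it had 0.

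Sla2, a Src-like adaptor that damps antigen receptor signalling, was at 5.71 and 6.69 in the deleted group and at 4.4 and 4.84 in controls (1.58 ± 0.38, adjusted p = 0.0266). Gimap8 and Gimap3, small GTPases that support lymphocyte survival, also rose. Gimap8 was at 8.16 and 8.48 on deleted arrays and at 6.87 and 6.55 on control arrays (1.60 ± 0.35, adjusted p = 0.0145). Gimap3 was at 6.78 and 7.38 in the deleted group, against 5.40 and 5.41 in controls (1.67 ± 0.42, adjusted p = 0.0305). Satb1, a chromatin organiser of T cells, was at 9.40 and 10.18 in the deleted group and at 8.24 and 8.54 in controls (1.40 ± 0.34, adjusted p = 0.0288). Bcl2, which protects lymphocytes from apoptosis, was at 7.95 and 7.73 in the deleted group, against 6.81 and 6.52 in controls (1.17 ± 0.21, adjusted p = 0.00277). Bcl2 remained called when any of the 4 arrays was left out, whereas Sla2, Gimap8, Gimap3 and Satb1 were each called in 1 of those 4 fits. Over the 17 alternatives Bcl2 was called in 17, Gimap8 in 12, Sla2 and Gimap3 in 10 and Satb1 in 9.

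Effector genes of killer lymphocytes were higher on both deleted arrays than on both control arrays. Gzma, granzyme A, was at 11.78 and 12.28 on deleted arrays, against 10.44 and 10.50 on controls (1.56 ± 0.33, adjusted p = 0.0112). It was the 1 gene called of 14, and all 14 were higher without overlap (median 0.98), against 16.2% of all genes. Ifng, the gene of interferon gamma, was at 9.96 and 10.68 in the deleted group and at 9.01 and 9.25 in controls (1.19 ± 0.42, adjusted p = 0.129). Prf1, perforin, was at 8.87 and 9.69 in the deleted group, against 8.11 and 7.93 in controls (1.26 ± 0.45, adjusted p = 0.141). Gzmb differed by 0.67 ± 0.38 (adjusted p = 0.429). Each of the 14 was higher in deleted replicate 2 than in deleted replicate 1, and Gzma lost its call without deleted replicate 2 or without either control. Of 7 inhibitory receptors 0 were called by limma (median 0.68). Pdcd1, the gene of PD-1, was at 6.26 and 7.07 on deleted arrays and at 5.41 and 5.72 on control arrays (1.11 ± 0.47, adjusted p = 0.237). Of 11 measured Treg genes 0 were called, with a median of 0.06. The Treg gene nearest to a call was Ikzf2, at 8.88 and 9.24 in the deleted group and 7.81 and 8.02 in controls (1.14 ± 0.35, adjusted p = 0.0806).

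**Figure D3:**
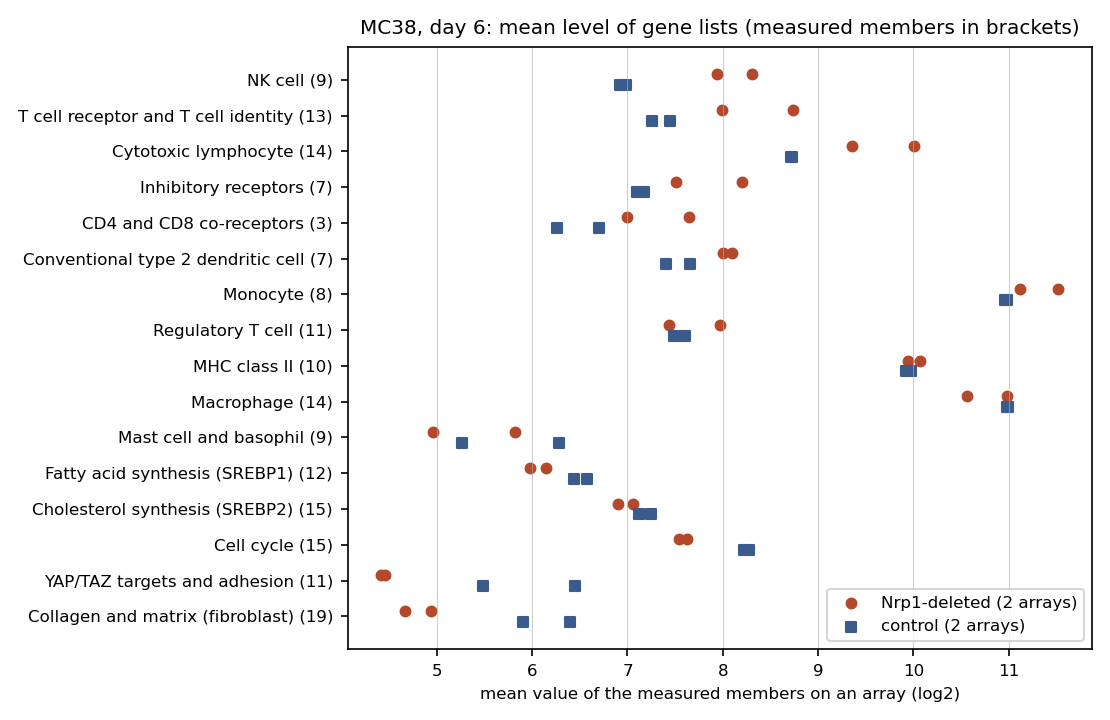
Mean deposited value of the measured members of 16 gene lists (x axis, log2) on the 2 Nrp1-deleted arrays (red circles) and the 2 control arrays (blue squares), with the number of measured members in brackets. NK, T cell and cytotoxic lists lie to the right in the deleted group, cell cycle, YAP/TAZ and collagen lists to the left, and the mast cell list overlaps.

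Among genes of myeloid cells, those of the chemokines Ccl24 and Ccl8, of F7 and of Flt1 rose. Ccl24, an eotaxin, which draws eosinophils and is made by alternatively activated macrophages, had the largest rise of all called genes. It was at 11.67 and 11.54 in the deleted group, against 8.08 and 9.70 in controls (2.71 ± 0.72, adjusted p = 0.0397), and the controls lay 1.61 log2 units apart from each other. Ccl8, a monocyte-attracting chemokine, was at 11.71 and 12.73 on deleted arrays and at 9.91 and 10.84 on control arrays (1.84 ± 0.46, adjusted p = 0.0289). F7, coagulation factor VII, was at 7.83 and 7.86 in the deleted group, against 6.15 and 5.94 in controls (1.80 ± 0.33, adjusted p = 0.00458), and it was called in each of the 17 alternatives. Flt1, the receptor VEGFR1 of endothelium and of some macrophages, was at 8.10 and 7.33 in the deleted group and at 5.69 and 6.05 in controls (1.84 ± 0.31, adjusted p = 0.00200). Of these 4 genes, Ccl24 was called in 1, Ccl8 in 2, Flt1 in 3 and F7 in 4 of the 4 fits that left out an array.

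Of 14 measured macrophage identity genes, 1 fell, 0 rose and the median was -0.27. That gene was Cx3cr1, the fractalkine receptor of monocyte-derived macrophages, at 9.89 and 7.74 on deleted arrays and 10.19 and 10.26 on control arrays (-1.41 ± 0.37, adjusted p = 0.0366). Its difference rests on deleted replicate 2, the array on which the macrophage list as a whole was lowest. The call was lost without that array and in 11 of the 17 alternatives in all. Adgre1, the gene of F4/80, was at 10.62 and 9.92 in the deleted group and at 10.36 and 10.39 in controls. The complement genes C1qa, C1qb and C1qc differed by -0.32 to -0.26, with adjusted p from 0.742 to 0.828. Of 17 genes of an arginase and M2-like list, Ccl24 alone passed. Arg1, arginase, was at 13.62 and 13.57 on deleted arrays, against 13.33 and 13.33 on controls (0.27 ± 0.53, adjusted p = 0.891). Mrc1, the mannose receptor CD206, was at 11.26 and 10.76 in the deleted group, against 9.86 and 10.49 in controls (0.83 ± 0.59, adjusted p = 0.558). Chil3, the chitinase-like protein Ym1, was at 12.08 and 12.06 in the deleted group and at 10.74 and 11.08 in controls (1.16 ± 0.52, adjusted p = 0.265).

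The other large rises were Tut4, Nr2c2 and Sidt1. Tut4, a terminal uridylyltransferase of RNA, was at 6.6 and 7.0 on deleted arrays, against 4.6 and 4.27 on controls (2.36 ± 0.49, adjusted p = 0.0106). Nr2c2, an orphan nuclear receptor, was at 5.76 and 6.05 in the deleted group, against 4.32 and 3.73 in controls (1.89 ± 0.40, adjusted p = 0.0126), while its second, dim probe set gave -0.04. Sidt1, a transmembrane protein of the SID-1 family, was at 5.01 and 5.70 in the deleted group and at 3.36 and 4.04 in controls (1.66 ± 0.44, adjusted p = 0.0408). Of the 15 largest rises, 13 remained called without deleted replicate 1, 2 without deleted replicate 2, 5 without control replicate 2 and 1 without control replicate 1. Of the 15 largest falls, 15, 14, 15 and 9 remained in the same fits.

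Cell cycle genes were lower in the deleted group. Of 15 measured, 5 fell, 0 rose, all 15 differences were below 0 and 14 were lower without overlap, with a median of -0.75. Over all genes, 1.99% fell, 10035 of 17097 differences were below 0 and 25.9% of genes were lower without overlap. Cdk1, the kinase that drives entry into mitosis, was at 7.90 and 7.96 on deleted arrays, against 9.05 and 8.87 on controls (-1.03 ± 0.27, adjusted p = 0.0344). Ccnb2, a cyclin B that activates it, was at 7.56 and 7.51 in the deleted group, against 8.16 and 8.41 in controls (-0.75 ± 0.17, adjusted p = 0.0176). The next called genes act in DNA replication. Mcm2, a subunit of the replicative helicase, was at 7.58 and 7.19 in the deleted group and at 7.96 and 8.33 in controls (-0.76 ± 0.15, adjusted p = 0.00897). Rrm2, a subunit of ribonucleotide reductase, was at 7.43 and 7.51 in the deleted group, against 8.25 and 8.26 in controls (-0.79 ± 0.20, adjusted p = 0.0340). Pcna, the sliding clamp, was the fifth and differed by -0.35 (adjusted p = 0.0389), named after its values were seen. Mki67, the gene of the proliferation antigen Ki-67, was at 8.41 and 8.67 on deleted arrays and at 8.57 and 8.69 on control arrays and overlapped. The mean level of the list was 7.62 and 7.54 in the deleted group, against 8.22 and 8.28 in controls. Without an array the list kept a median of -0.77 to -0.60, but had 3 calls without deleted replicate 1, 1 without control replicate 1 and 0 without either of the others.

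Promoters of cycle genes that peak in mitosis often hold the CHR element (TTTGAA) beside CCAAT boxes, which the factors MuvB and NF-Y read. The windows of Cdk1 and Ccnb2 are shown because both genes fell and hold both elements. They are RefSeq (GRCm38.p6) sequence of the same 300 bases around the start, on the minus strand, at chr10:69352863-69353162 for Cdk1 and chr9:70421505-70421804 for Ccnb2. Capitals mark TTTGAA and CCAAT, or their reverse complements TTCAAA and ATTGG.
Cdk1: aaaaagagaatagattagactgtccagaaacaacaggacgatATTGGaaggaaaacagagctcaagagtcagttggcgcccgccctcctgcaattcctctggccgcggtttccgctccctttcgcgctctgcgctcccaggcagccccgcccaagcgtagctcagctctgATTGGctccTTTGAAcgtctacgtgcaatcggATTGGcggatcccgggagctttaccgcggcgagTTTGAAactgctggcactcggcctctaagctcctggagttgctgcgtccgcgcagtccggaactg
Ccnb2: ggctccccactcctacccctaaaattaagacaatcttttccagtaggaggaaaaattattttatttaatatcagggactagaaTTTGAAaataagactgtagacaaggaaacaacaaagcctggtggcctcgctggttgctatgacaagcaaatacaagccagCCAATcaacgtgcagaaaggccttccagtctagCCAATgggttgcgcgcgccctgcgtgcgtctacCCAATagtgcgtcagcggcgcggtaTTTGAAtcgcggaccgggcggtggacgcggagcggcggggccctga
Each window has 2 matches to TTTGAA and 3 to CCAAT. On either strand TTTGAA stood in 7 of 13 windows (53.8%) of the cell cycle list and in 17.9% of all windows, and CCAAT in 11 of 13 (84.6%) and in 37.4%. None of the 13 held GGAATG.

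Of 12 measured genes of fatty acid synthesis, which the factor SREBP1 drives, 3 fell, 0 rose and the median was -0.40. Of all genes, 1.99% fell. Fads2, a desaturase of polyunsaturated fatty acids, was at 4.08 and 3.63 on deleted arrays, against 5.59 and 5.39 on controls (-1.64 ± 0.28, adjusted p = 0.00212). Me1, malic enzyme, which supplies NADPH, was at 3.81 and 4.17 in the deleted group, against 5.79 and 4.73 in controls (-1.27 ± 0.32, adjusted p = 0.0314). Fads1, the desaturase paired with Fads2, was at 7.37 and 6.45 in the deleted group and at 7.74 and 7.67 in controls (-0.79 ± 0.22, adjusted p = 0.0451). Both desaturases and Me1 separated the groups, as all called genes did. In the list 6 genes were lower without overlap and 3 higher, against 25.9% and 16.2% of all genes. Differences above 0 were found for 4 of the 12, up to 0.68. Over the 17 alternatives Fads2 was called in 16, Me1 in 9 and Fads1 in 5. Scd1, stearoyl-CoA desaturase, was at 4.94 and 5.0 in the deleted group, against 6.46 and 5.95 in controls (-1.24 ± 0.35), and missed the threshold at an adjusted p of 0.0514. Fasn, fatty acid synthase, was at 7.48 and 7.37 in the deleted group and at 7.82 and 7.82 in controls (-0.39 ± 0.15, adjusted p = 0.176). Calls in the list were 3 without deleted replicate 1, 1 without deleted replicate 2, 2 without control replicate 2 and 0 without control replicate 1. These genes are active in tumour and stromal cells as well as in macrophages, and the collagen and Rhox5 values above moved the same way. That part was not tested.

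Ligands and receptors around neuropilin changed in both directions. Of 18 measured genes, 3 rose (Flt1, Plxnd1 and Nrp2) and 2 fell (Sema3a and Sema3c), and the median was 0.04. Of all genes, 0.983% rose and 1.99% fell. Among receptors, Plxnd1, the plexin that binds Sema3e, was at 8.08 and 7.89 on deleted arrays, against 7.04 and 7.19 on controls (0.87 ± 0.21, adjusted p = 0.0288). Nrp2, the paralogue of Nrp1, was at 7.48 and 7.29 in the deleted group, against 6.50 and 6.72 in controls (0.77 ± 0.20, adjusted p = 0.0340), and is named after its values were seen. Among secreted ligands, Sema3a was at 3.42 and 3.60 in the deleted group, near the median of all values, and at 4.59 and 4.96 in controls (-1.26 ± 0.21, adjusted p = 0.00221). Sema3c was at 2.92 and 3.0 in the deleted group, against 4.62 and 3.78 in controls (-1.24 ± 0.32, adjusted p = 0.0333). On the probe sets used, both secreted ligands thus fell to low levels in the deleted group. A further dim probe set of Sema3c gave -0.04, and those of Sema3a gave -0.28 and -0.86, none of them called. Over the 17 alternatives Sema3a was called in 16 and Sema3c in 9. The membrane ligand Sema4a was at 9.21 and 9.16 in the deleted group, against 8.82 and 8.86 in controls (0.35 ± 0.15, adjusted p = 0.263). The list had 1 call without control replicate 1, and 2 or 3 without any other array. Of 9 genes of the TGF-beta pathway, 2 fell, against 1.99% of all genes. They were the ligand gene Tgfb3 (4.95 and 6.03 in the deleted group, 7.09 and 6.94 in controls, -1.53 ± 0.37, adjusted p = 0.0257) and the receptor gene Tgfbr1 (9.33 and 8.63 in the deleted group, 9.94 and 9.63 in controls, -0.80 ± 0.20, adjusted p = 0.0301). Further dim probe sets of Tgfbr1 gave -0.11 and 0.07 and were not called, and the TGF-beta list takes 1 probe set per gene. That list had 1 call without either deleted array and 0 without either control array.

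Pecam1, CD31 of endothelium, platelets and many leukocytes, was at 6.31 and 6.77 on deleted arrays, against 5.08 and 5.12 on controls (1.44 ± 0.29, adjusted p = 0.00966). The other 9 endothelial genes were not called, Cdh5, Tek and Tie1 lay below the median of all values, and the list summed to 37.8 and 39.9 in the deleted group and 37.9 and 39.8 in controls. Mast cell genes did not separate the groups. All 9 measured genes overlapped, with the list at 4.96 and 5.82 in the deleted group and 6.28 and 5.26 in controls. Each of the 9 was higher in control replicate 1 than in control replicate 2, and higher in deleted replicate 2 than in deleted replicate 1. Cma1, mast cell chymase, for example, was at 7.23 and 8.39 on deleted arrays and at 9.09 and 7.62 on control arrays. Control replicate 1 was also the array with the highest collagen and YAP/TAZ levels, and the part that its cell mixture had in the falls was not tested.

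The genotype difference at day 6 was set beside the same difference at later days of MC38 growth and in early B16.F10 tumours, which use other arrays. Of the 168 genes that rose at day 6, 102 (60.7%) also rose at day 12 and 95 (56.5%) at day 18, where the shares of all genes that rose were 3.71% and 3.12% (with falls, 8.59% and 5.36% of genes were called). Seen from the later days, these are 16.1% of the 635 rises of day 12 and 17.8% of the 534 of day 18. Of the 340 genes that fell, 138 (40.6%) also fell at day 12 and 100 (29.4%) at day 18, against 4.87% and 2.24% of all genes, and they are 16.6% of the 833 falls of day 12 and 26.1% of the 383 of day 18. In early B16.F10 tumours 0 of the 168 rose and 2 of the 340 (0.588%) fell, where the limma fit called 26 rises (0.152%) and 50 falls (0.292%) in all (0.445% of genes). Titles and source names differ on the day of those tumours (8 or 6).

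Matrix genes fell at all 3 days. Of the 15 largest falls, 15 fell at day 12 and 9 at day 18, and 0 in early B16.F10. Col6a1, for one, differed by -2.63 at day 6, -3.21 at day 12, -2.63 at day 18 and 0.33 in early B16.F10. The collagen list had 11, 11 and 10 genes that fell at days 6, 12 and 18, with medians of -1.88, -1.97 and -1.51. The T cell and NK lists had medians above 0 at each day. The T cell list had 1, 5 and 12 genes called higher, with medians of 1.04, 0.93 and 1.68, and the NK list had 4, 3 and 4, with medians of 1.14, 0.89 and 1.26. Day 12 has 3 arrays a side, so numbers of calls are not on the same footing. The cell cycle list had 5, 1 and 4 genes called lower.

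**Figure D4:**
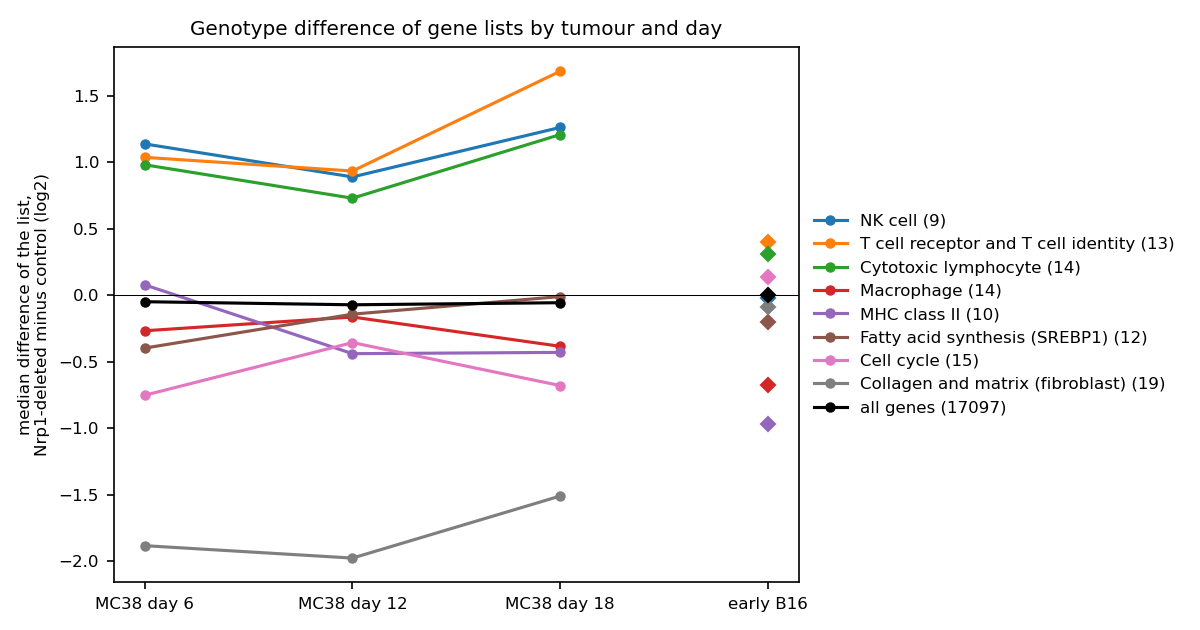
Median difference between Nrp1-deleted and control arrays (y axis, log2) of the measured members of 8 lists and of all 17097 genes, for MC38 tumours at days 6, 12 and 18 (circles joined by lines) and early B16.F10 tumours (diamonds). The collagen list lies between -1.97 and -1.51 at the 3 MC38 days and at -0.09 in early B16.F10, and the T cell list reaches 1.68 at day 18.

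Tests of the difference of the genotype effects found few genes that set day 6 apart from the later MC38 days. Between days 6 and 18, 14 genes passed (0.0819% of those tested), 3 of them with a higher effect at day 6 (0.0175%) and 11 with a lower one (0.0643%), and between days 6 and 12 only Il5 (0.00585%). No member of the 40 gene lists was among the 14. Ccl8 was the gene with the largest such difference. It rose at day 6 (1.84), differed by -0.04 at day 12 and fell at day 18 (-1.64, adjusted p = 0.0360), and the effects of days 6 and 18 differed by 3.49 (adjusted p = 0.0282). Ppp1r10, a regulatory subunit of protein phosphatase 1, went the other way, with -0.70 at day 6 and 0.79 at day 18. Those were the only 2 genes called in opposite directions at the 2 days. The number of genes that differed between days 6 and 18 moved to 122 without deleted replicate 2, 2 without deleted replicate 1, 2 without control replicate 2 and 0 without control replicate 1. Il5, the growth factor of eosinophils, was at 4.22 and 4.67 on deleted arrays and at 2.69 and 3.32 on control arrays at day 6 (1.44 ± 0.22, adjusted p = 0.00104). It differed by -0.30 at day 12 and 0.09 at day 18.

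Against early B16.F10 tumours, 56 genes had another genotype effect (0.328%), 27 higher (0.158%) and 29 lower (0.17%) at MC38 day 6. The number was 5 without control replicate 1 and 119 without deleted replicate 2. Collagens were the plainest case. Col5a1 differed by -3.22 in MC38 and 0.11 in early B16.F10, and these effects were 3.33 log2 units apart (-3.33, adjusted p = 0.00305). Effects that differed between MC38 day 6 and early B16.F10 were those of 4 genes of the collagen list and 4 of the neuropilin list. The YAP/TAZ list had 1 (Cav1), the macrophage list 1 (Cx3cr1) and the inhibitory receptor list 1 (Havcr2, chosen after its values were seen). Later B16.F10 tumours are not covered by this comparison. In B16.F10 tumours at day 18, Col5a1 (-1.31) and Cav1 (-2.02) were called lower in the deleted group. Col6a1 (0.03) and Col6a2 (-0.46) were not called there. Flt1 and Plxnd1 differed by 1.84 and 0.87 in MC38, and by -0.20 and -0.79 in early B16.F10. Nrp1 itself fell in early B16.F10 (-1.62, adjusted p = 0.00145). The levels of both tumours cannot be compared directly, since the quantiles of the day 6 arrays differed by up to 0.071 (root mean square, log2) from those of the MC38 day 18 arrays and by 0.118 to 0.25 from those of all other arrays.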

How the data were processed

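RNA of CD45+ cells, lysed after sorting without culture, was extracted with a column kit and labelled as biotin cRNA in the Two-Cycle protocol, per the labels' protocols; repeated amplification can distort rare transcripts. Per the submitters' processing notes, the authors used RMA and Partek 6.6, and the values they deposited are log2 intensities. Settings of background correction and summary are not given in the sources. Of 45141 probe sets, 28898 named 1 gene in the platform table, 551 named several, 15588 were unnamed here and 104 were controls. For each of the 17097 genes the probe set of highest mean across the 28 arrays was used, and 7180 genes had several.

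From these values, limma 3.58.1 in R 4.3.3 was fitted to all 28 arrays with 12 group means. Moderation followed a trend with intensity, no gene was filtered out, and p-values were adjusted over all genes by Benjamini-Hochberg (threshold 0.05). All tests are 2-sided, and ± is the standard error of the fit. With 2 arrays a group, the number of arrays limits the precision. Named genes are the 15 largest called rises and falls whose higher group lies above the median of all values, up to 4 members of each of 40 lists by adjusted p, up to 5 genes each way for each difference of effects, and 12 fixed genes. The members and lists were chosen with earlier results of these data known. Of 460 genes in the lists, 403 were measured. Same-numbered arrays of the groups did not deviate together (r = -0.023 over probe sets), so no pairing was used. Alternatives varied the variance model, the arrays in the fit, array weights, scaling, a filter on dim genes, the choice of probe set, a replicate block and the arrays left out.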

Additional observations from a re-analysis of the deposited data

Results flagged for a closer look

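The results below are differences of the genotype effect (Nrp1-deleted minus control, log2) between MC38 day 6 and another tumour or day, each past the limma test of that difference.

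Between days 6 and 18 of MC38 growth, each of the differences had an adjusted p of 0.0282. Ccl8 had an effect 3.49 higher at day 6 than at day 18. Slamf6, a receptor of T and NK cells, had one 1.68 higher (0.48 at day 6 and -1.20 at day 18), and Eya4 one 1.52 higher (-0.24 and -1.77). B3gnt5, a glycosyltransferase, had 0.15 at day 6 and 2.35 at day 18, a difference of -2.20. Fosl2, an AP-1 subunit, had 0.11 and 1.53, a difference of -1.42. Ppp1r10 differed by -1.49, Rybp, a Polycomb subunit, by -1.40 (-0.45 and 0.95) and Nkrf, a repressor of NF-kappaB targets, by -1.37 (-0.90 and 0.46). Between days 6 and 12, Il5 had an effect 1.74 higher at day 6 (adjusted p = 0.0467).

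Against early B16.F10 tumours, matrix and adhesion genes had lower effects at MC38 day 6. The difference was -3.33 for Col5a1, -2.95 for Col6a1, -2.39 for Col6a2 and -2.57 for Col6a3. For Cav1 it was -2.76, for Cald1 -2.76, for Cd34 -2.75, for Grb10 -2.62, for Htra1 -2.51 and for Serpinf1 -1.94. Cx3cr1 differed by -2.44 (-1.41 at MC38 day 6 and 1.03 in early B16.F10) and Sema3a by -1.42. Higher effects at MC38 day 6 were those of F7, by 2.37 (1.80, against -0.56 in early B16.F10), Flt1, by 2.04, Bcl2, by 1.96 (1.17, against -0.79), Cfb, complement factor B, by 1.90 (0.50, against -1.39), Zbtb10, by 1.89 (0.63, against -1.26), Plxnd1, by 1.66, and Il5, by 1.45. The adjusted p of these tests ran from 0.00305 for Col5a1 to 0.0478 for Col6a3.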

How the results depend on the processing

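The number of genes called at MC38 day 6 (508, with 168 higher and 340 lower) was within 1.5 times of that in 10 of 17 alternatives. It was 104 (55 and 49) with the 4 day 6 arrays alone, 306 (99 and 207) with the MC38 arrays alone, 241 (92 and 149) with array weights and 229 (77 and 152) with a replicate block. Leaving out 1 array gave 59 to 635 genes (18 to 175 higher, 41 to 460 lower). A fit without an array takes the lone sample to vary like the other groups. The genes that differed between days 6 and 18 (14) numbered 2 without the intensity trend, 33 with the day 6 and 18 arrays alone, 5 with the MC38 arrays, 26 with array weights, 6 with cyclic loess, 4 centred on the 75th percentile, 1 with quantile normalization, 3 with the mean over probe sets, 0 with the replicate block and 0 to 122 without 1 array. Those between days 6 and 12 (1) numbered 0 without the trend, with the MC38 arrays, with array weights, centred on the 75th percentile, with the filter on dim genes and with the replicate block, 2 with the mean over probe sets, 3 with the most variable probe set and up to 28 without 1 array. Those between MC38 day 6 and early B16.F10 (56) numbered 31 without the trend, 16 with the replicate block and 5 to 119 without 1 array. Nrp1 kept its side of the threshold in 16 alternatives and differed by -1.14 (without deleted replicate 1, adjusted p = 0.00764) to -0.18 (without deleted replicate 2). The cause of these shifts was not tested.

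The named genes whose difference changed sign were not called in any of the 17 alternatives. With the mean over probe sets these were B3gnt5 (-0.084) and Fosl2 (-0.0075). Over the 4 fits without 1 array, the difference ran from -0.45 to 0.25 for Adgre1, -0.10 to 0.40 for B3gnt5, -0.24 to 0.55 for Ccr2, -1.28 to 0.19 for Cma1, -1.35 to 0.19 for Cpa3, -0.50 to 0.018 for Eya4, -0.11 to 0.33 for Fosl2, -0.11 to 0.23 for Foxp3, -0.012 to 0.33 for Itgav, -0.82 to 0.051 for Kdr, -0.47 to 0.28 for Klf2 and -2.0 to 0.021 for Mcpt4. Called in all 17 alternatives were Bcl2, Cav1, Cd34, Col5a1, Col5a2, Col6a1, Col6a2, F7, Grb10, Htra1 and Serpinf1.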

Other observations

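Several groups of genes showed few or no calls at day 6. Of 15 measured genes of cholesterol synthesis, which the factor SREBP2 drives, 0 were called by limma, and the median was -0.22. In that list 14 differences were below 0, against 10035 of 17097 over all genes. Lower on both deleted arrays than on both controls were 9 of its genes, against 25.9% of all genes. Of 10 genes of MHC class II presentation 0 were called, with a median of 0.08. The invariant chain gene Cd74 was at 11.51 and 11.31 in the Nrp1-deleted group and at 11.17 and 11.19 in controls (0.23 ± 0.22, adjusted p = 0.711). Of 13 genes induced by interferon gamma 0 were called (median 0.09), and of 12 genes induced by type I interferon 0 were called (median -0.17). Of 14 genes of glycolysis and hypoxia 0 were called (median 0.06).

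Of 9 genes of type 1 conventional dendritic cells, 1 fell and 0 rose, and the median was -0.15. In that list 4 differences were above 0 and 5 below, and 2 genes were higher without overlap and 2 lower. The gene that fell was Cadm1, an adhesion molecule of those cells. It was at 4.56 and 4.44 on deleted arrays, against 5.27 and 5.82 on controls (-1.04 ± 0.27, adjusted p = 0.0379). Cadm1 was called in 10 of the 17 alternatives. Of 7 genes of type 2 conventional dendritic cells 0 were called, and the median was 0.59. Irf4, a transcription factor of those cells and of activated lymphocytes, was at 6.97 and 7.65 in the deleted group and at 6.22 and 6.33 in controls (1.03 ± 0.40, adjusted p = 0.188). Of 12 neutrophil genes 0 were called (median 0.08). Hba-a1, the haemoglobin alpha chain of red cells, was at 7.16 and 6.17 on deleted arrays and at 10.36 and 8.73 on control arrays (-2.88 ± 1.00, adjusted p = 0.127). All of these counts are from the limma fit, in which 2673 of 17097 genes had an unadjusted p under 0.05.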
